A study of Bos taurus with 12 samples.

Results

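The miRNAs described here are miR-25, miR-32, miR-92a, miR-92b and miR-363, which share one seed. They were picked by name, with species prefix, arm and precursor copy number ignored, which gave 14 rows of the table. Repeat rows counted once left 12 features among 1981 in all, with bta-miR-25, bta-miR-32_R-2, bta-miR-92a, bta-miR-92b and bta-mir-363-p3 as the most abundant form of each name. They were measured by small RNA sequencing in blood of 12 Chinese Holstein cows, of which 6 were classed as heat stressed and 6 as heat resistant. The study set these classes by principal components of 2 traits, rectal temperature and lost milk yield. No treatment, age or genotype is given, and the fraction of blood that was extracted is not labelled. The 12 libraries were taken as 1 per cow, although the protocol text speaks of 9. Total counts, with repeat rows counted once, ran from 3992952 to 9813801 per library.

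A miRNA guides the silencing complex to messenger RNAs through its seed, the short stretch near its 5′ end that pairs with the target. miRNAs with the same seed can therefore act on overlapping sets of messenger RNAs. In human and mouse cells the targets of this family include BCL2L11 (BIM), which promotes cell death. The guide strand of miR-32 comes from the 5′ arm of its precursor, and those of the other family members come from the 3′ arm. In the RefSeq cattle gene table (assembly ARS-UCD2.0) the genes fall into several groups of neighbours. MIR25 lies within MCM7, a gene of the replicative helicase, next to MIR93 and MIR106B. MIR92A-1 lies next to MIR17, MIR18A, MIR19A, MIR20A and MIR19B. MIR92A-2 and MIR363 lie together with MIR106A, MIR18B, MIR20B and MIR19B-2. MIR32 lies within TMEM245 and MIR92B within no protein gene, and neither has another miRNA gene within 10000 bases.

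Heat resistant library 4 stood apart from the rest of its group. The red cell miRNAs miR-451, miR-144 and miR-486 together had 97785 CPM in it (counts per 1000000 of the library total, after TMM adjustment). The other 5 heat resistant libraries had 20209 to 27645 CPM, and the heat stressed libraries 26234 to 82253 CPM. None of these 3 marker names was at 0 in every library. In bulk blood, fewer cells of a type and less RNA per cell cannot be told apart, and the extracted fraction is unknown. Heat resistant libraries 1 and 2 also stood apart by the sum of the hepatocyte miRNAs miR-122 and miR-885. It was 147897 CPM in library 1 and 158490.1 CPM in library 2. The other 4 of that group had 18053 to 24182 CPM, and the heat stressed libraries 9359 to 45578 CPM. Several results are also given without library 4 or without libraries 1 and 2.

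The family was abundant and was dominated by miR-25 and miR-92a. It held 4.64 ± 0.844% of counts in heat stressed libraries, against 3.37 ± 1.18% in heat resistant ones (n = 6 each, SD). Heat stressed libraries ran from 3.60% to 5.99%. Heat resistant library 4 had 5.68% (95% exact interval 5.67% to 5.70%, counting error only), while the remaining 5 had 2.45% to 3.30%. The 2 lowest shares, 2.60% and 2.45%, were those of heat resistant libraries 1 and 2. The difference between the group means was 1.26 percentage points, and 0.837 without these 2 libraries. Without heat resistant library 4, which had the highest share of its group, it was 1.73. The share of the family's counts that was miR-25 was 74.1 ± 2.45% in heat stressed libraries, against 69.3 ± 5.58% in heat resistant ones (n = 6 each, SD). That of miR-92a was 23.4 ± 2.01% in heat stressed libraries, against 28.5 ± 5.42% in heat resistant ones (n = 6 each, SD). miR-32 held 1.30 ± 0.432% in heat stressed libraries, against 0.921 ± 0.114% in heat resistant ones (n = 6 each, SD). miR-92b held 0.970 ± 0.190% in heat stressed libraries, against 1.04 ± 0.204% in heat resistant ones, and miR-363 held 0.176 ± 0.0528% in heat stressed libraries, against 0.191 ± 0.0275% in heat resistant ones (n = 6 each, SD). In both groups miR-25 and miR-92a thus made up nearly all of the family.

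The order of the levels depends on how miR-92a is counted. Its mature form stands on 2 rows with the same name and values, which the table does not tell apart by gene. In 9 of 12 libraries these values were whole once doubled (within 1e-06). In the other 3 libraries neither miR-92a after doubling nor miR-92b was whole. With the row counted once, miR-25 exceeded miR-92a in all 12 libraries, and with the rows summed in 10 of them. The 2 exceptions were heat resistant libraries 1 and 2, with 0.899 and 0.976 counts of miR-25 per count of miR-92a. miR-25 then held 60.1 ± 2.94% of the family in heat stressed libraries, against 54.2 ± 6.77% in heat resistant ones (n = 6 each, SD). In every library miR-92a exceeded miR-32 at least 12.4-fold, and miR-92b exceeded miR-363 at least 4.55-fold. miR-32 and miR-92b had levels of the same size, and their order differed between libraries. With the rows summed, the log2 fold change of miR-92a between the groups described next was 0.22, against 0.25 with the row counted once. Preferences of adapter ligation can set apart the levels of different miRNAs.

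**Figure D1:**
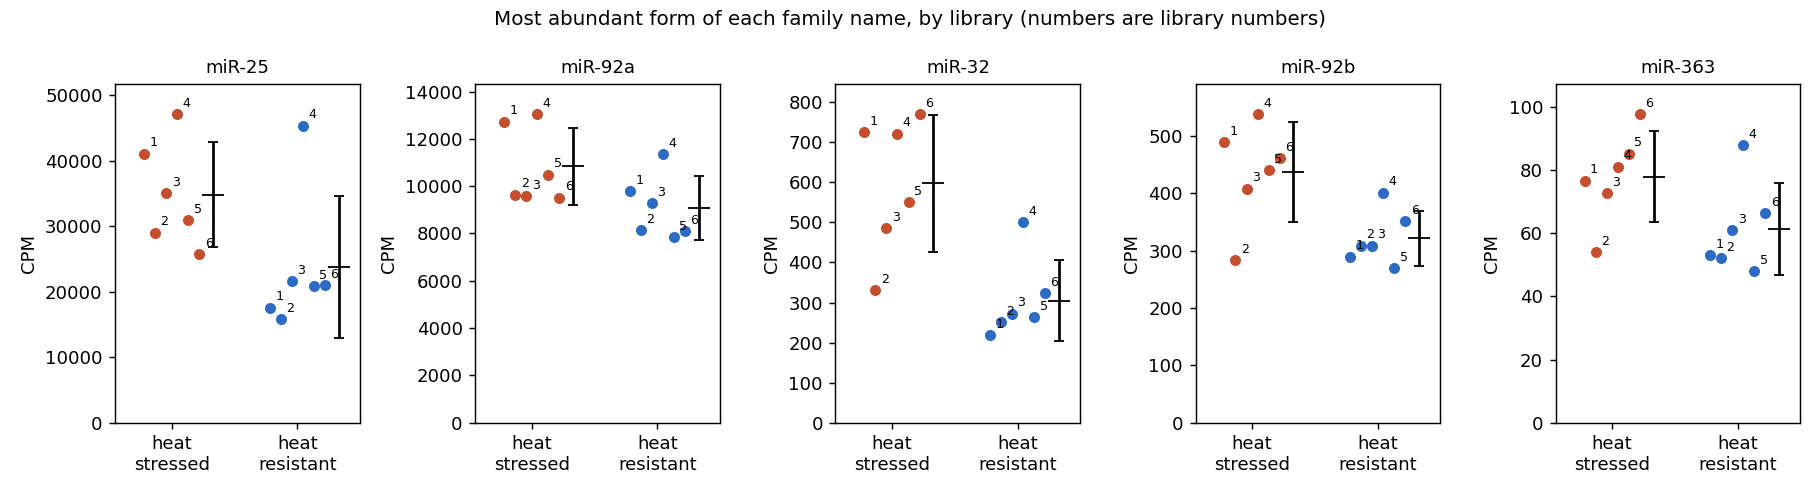
CPM (vertical axes, each from 0) of the most abundant form of each family name in the 6 heat stressed and 6 heat resistant libraries; points are libraries with their numbers, and bars are mean ± SD. Heat resistant library 4 is the highest of its group in every panel, and for miR-25 it reaches 45365 CPM against 15871 to 21578 CPM in the other 5.

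In the test over the whole table no family feature passed. Of the 12 features, 8 were abundant enough to be tested, and edgeR's quasi-likelihood test with Benjamini-Hochberg adjustment called 0 of these 8 and 0 of 756 features in all (0%). At an unadjusted p under 0.05 stood 3 of the 8, against 146 of 756 (19.3%). All 3 had higher values in heat stressed cows, as had 69 of 756 features (9.13%). The log2 fold changes, heat stressed over heat resistant, of all 8 were above 0, with a median of 0.39. Over all 756 features 49.7% were above 0 and the median was -0.00. The 8 are not independent, since arms come from one precursor and some precursors from one transcript. The groups overlapped in each of the 8, and did not overlap in 8 of 756 features (1.06%). DESeq2 called 54 of 756 features (7.14%; 30 higher, 3.97%), among them miR-32 alone of the family, and limma-voom called 0. Without heat resistant libraries 1 and 2, an alternative chosen after seeing the data, edgeR called 0 of 818 features and 0 of the 8.

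miR-25 had higher values in heat stressed cows, but the difference did not pass. Its level ran from 25718 to 47085 CPM with a median of 32993 CPM in heat stressed libraries, and from 15871 to 45365 CPM with a median of 20955 CPM in heat resistant libraries. All 6 heat stressed libraries lay above the heat resistant median, and only library 4 of that group lay among or above them. The log2 fold change was 0.55 ± 0.23 (SE; adjusted p = 0.213, edgeR). Without heat resistant library 4 it was 0.85 ± 0.16 (SE; adjusted p = 0.00645, edgeR), and 3 family features then passed, all higher, among 97 of 777 called (12.5%; 65 higher, 8.37%). Every heat stressed library lay above the other 5 heat resistant ones. Without library 4 the groups did not overlap, in either direction, in 51 of 756 features (6.75%). Since this library had the highest miR-25 of its group, leaving it out widens the difference by construction. Without heat resistant libraries 1 and 2 the log2 fold change of miR-25 was 0.33 ± 0.25 (SE, adjusted p = 0.608, edgeR). Since these libraries had the lowest miR-25 of their group, leaving them out narrows the difference by construction.

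The neighbours of MIR25 encode miR-106b and miR-93, which promote cell cycle entry, and their guides had higher values in heat stressed cows as well. miR-106b ran from 1577 to 2353 CPM in heat stressed libraries. Heat resistant library 4 had 2329 CPM of it, and the others of that group 789 to 1248 CPM. The log2 fold change was 0.61 ± 0.23 for miR-106b and 0.35 ± 0.18 for miR-93 (SE; adjusted p = 0.170 and 0.283, edgeR). It was 0.26 ± 0.21 for the 3′ product of miR-106b and -0.00 ± 0.18 for that of miR-93 (SE; adjusted p = 0.508 and 0.997, edgeR). Without heat resistant library 4, miR-106b, its 3′ product and miR-93 passed with higher values (edgeR adjusted p = 0.00513, 0.0354 and 0.0216). They were among 97 of 777 features called in that fit (12.5%), of which 65 were higher (8.37%). Since this library had the highest miR-106b and miR-93 of its group, leaving it out widens these differences by construction.

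miR-92a, known in mice for restraining vessel growth, differed less between the groups. It ran from 9517 to 13033 CPM with a median of 10065 CPM in heat stressed libraries, and from 7833 to 11342 CPM with a median of 8713 CPM in heat resistant libraries. All 6 heat stressed libraries lay above the heat resistant median, as for miR-25. The groups still overlapped, with 3 of 6 heat stressed libraries below the highest heat resistant library other than library 4. The log2 fold change was 0.25 ± 0.13 (SE; adjusted p = 0.284, edgeR), and 0.34 ± 0.12 without heat resistant library 4 (SE; adjusted p = 0.0905, edgeR). On the first miR-92a transcript, whose partners miR-17, miR-18a, miR-19a, miR-19b and miR-20a promote proliferation, 8 partner features were tested. Of these 7 had higher and 1 lower values, with a median log2 fold change of 0.11, and 0 passed.

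miR-363 shares its transcript with the second miR-92a gene. It was counted as the 3′ product of its precursor and ran from 54.1 to 97.7 CPM with a median of 78.9 CPM in heat stressed libraries. In heat resistant libraries it ran from 48.1 to 88.0 CPM with a median of 57.0 CPM. Heat stressed library 2 lay among the heat resistant libraries, and heat resistant library 4 among the heat stressed ones. The log2 fold change was 0.34 ± 0.18 (SE; adjusted p = 0.295, edgeR). Of the partners on this transcript 3 were tested, all with values above 0: miR-20b at 0.69 ± 0.19, miR-19b at 0.30 ± 0.20 and miR-106a at 0.12 ± 0.14 (log2 fold changes ± SE; adjusted p = 0.0762, 0.399 and 0.656, edgeR). miR-19b also lies on the first miR-92a transcript, and the values of miR-106a are the same as those of miR-17-5p, so their reads cannot be attributed to 1 transcript. Over all 3 transcripts 14 partner features were tested, 12 with higher and 2 with lower values, with a median log2 fold change of 0.16, and 0 passed. The shared values of miR-17-5p and miR-106a enter these counts under both names. Without heat resistant library 4, 4 of the 14 passed, all higher, among 97 of 777 features called (12.5%). DESeq2 called 1 of the 14, miR-20b, among 54 of 756 features called (7.14%).

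miR-32 had the largest difference of the 8 tested features, and ranked 7th of 756 by p. Its level was 726, 331, 487, 722, 551 and 769.8 CPM in heat stressed libraries 1 to 6, and 218, 252, 272, 500.3, 263 and 323 CPM in heat resistant libraries 1 to 6. All heat stressed libraries lay above the 5 heat resistant libraries other than library 4, which lay above heat stressed libraries 2 and 3. Such a separation without library 4 was found in 6.75% of all tested features. The means were 598 ± 172 CPM in heat stressed cows, against 305 ± 102 CPM in heat resistant ones (n = 6 each, SD), a log2 fold change of 0.97 ± 0.23 (SE; adjusted p = 0.0686, edgeR). The call depends on the libraries and the tool. In edgeR miR-32 passed when heat resistant library 4 was left out (adjusted p = 0.00513), and also when heat stressed library 2, which had the lowest level of its group, was left out (adjusted p = 0.0162). Without heat resistant libraries 1 and 2 the log2 fold change was 0.79 ± 0.26 (SE, adjusted p = 0.261, edgeR). These libraries had the lowest miR-32 of their group, so leaving them out narrows the difference by construction. DESeq2 gave an adjusted p of 0.00680 with all libraries. Without the filter on low counts miR-32 was the 1 family feature among 11 of 1978 called by edgeR (0.556%; 6 higher, 0.303%). With repeat rows summed it was 1 among 13 of 776 (1.68%; 9 higher, 1.16%).

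miR-92b is close in sequence to miR-92a but comes from a gene of its own. It ran from 283 to 537 CPM with a median of 451 CPM in heat stressed libraries, and from 269 to 401 CPM with a median of 309 CPM in heat resistant libraries. In 5 of 6 heat stressed libraries it exceeded every heat resistant library, and heat stressed library 2 lay among them. The log2 fold change was 0.44 ± 0.16 (SE; adjusted p = 0.154, edgeR). Without heat resistant library 4 it was 0.52 ± 0.15 (SE; adjusted p = 0.0390, edgeR). Without heat stressed library 2 it was 0.55 ± 0.13 (SE; adjusted p = 0.0469, edgeR), and in that fit miR-92b and miR-32 were the family features among 29 of 775 called (3.74%; 22 higher, 2.84%).

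**Figure D2:**
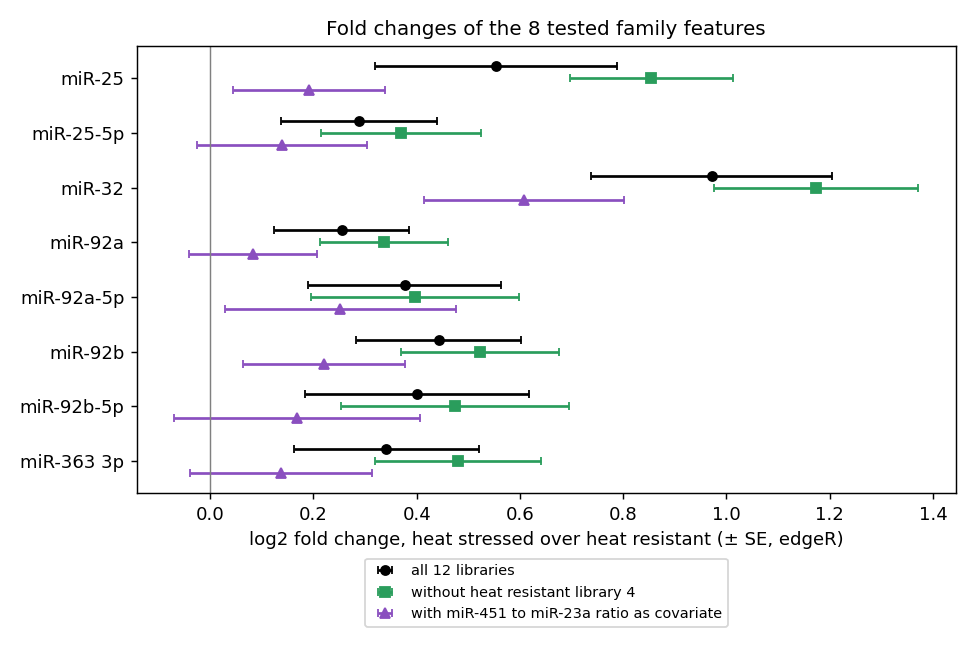
Log2 fold changes, heat stressed over heat resistant, with SE (horizontal axis) of the 8 tested family features in 3 edgeR fits. All points lie above 0. miR-32 is at 0.97 with all 12 libraries, 1.17 without heat resistant library 4 and 0.61 with the ratio of miR-451 to miR-23a as covariate. miR-25 is at 0.55, 0.85 and 0.19 in the same order. The mean of the ratio differed between the groups.

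The members did not keep one ratio across libraries. There were 3.19 ± 0.380 counts of miR-25 per count of miR-92a (row counted once) in heat stressed libraries and 2.55 ± 0.786 in heat resistant libraries (n = 6 each, SD). The heat stressed range was 2.70 to 3.65. The heat resistant range was 1.80 to 2.66 apart from library 4, which had the highest ratio of all 12, 4.0. miR-32 exceeded miR-92b in all 6 heat stressed libraries, with 1.17 to 1.67 counts of miR-32 per count of miR-92b. In heat resistant libraries that ratio was 0.753 to 0.979 apart from library 4, which had 1.25. Heat stressed library 6 shows the members apart from each other: it had the lowest miR-25 of its group, 25718 CPM, and the highest miR-32 and miR-363 of all 12 libraries. Per 1000 counts of miR-25 it had 29.9 counts of miR-32, against 11.4 to 17.8 in the other heat stressed libraries and 11 to 15.9 in the heat resistant libraries. These ratios were looked at with the fold changes known and were not tested.

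**Figure D3:**
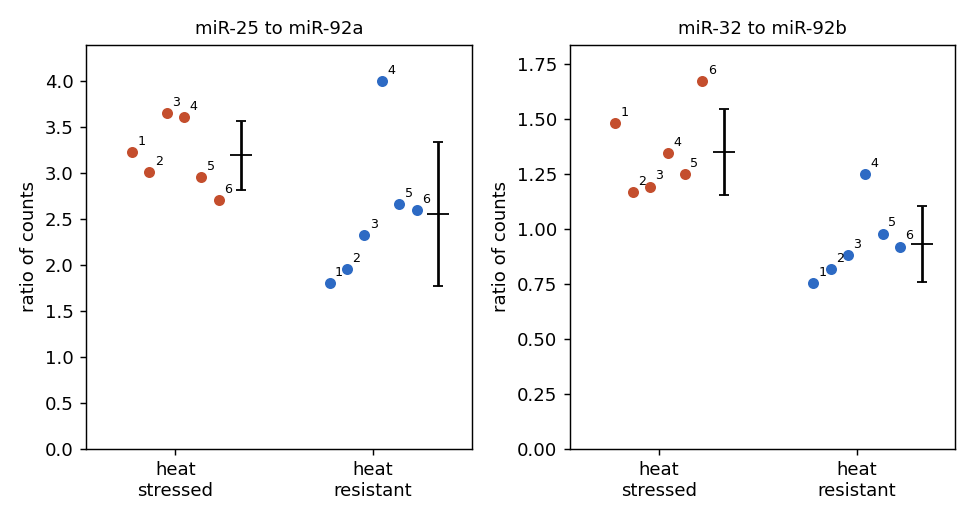
Ratios of counts (vertical axes from 0) of miR-25 to miR-92a and of miR-32 to miR-92b in each library, heat stressed left and heat resistant right; points carry library numbers and bars are mean ± SD. Apart from heat resistant library 4, at 4.0 and 1.25, the heat stressed libraries lie above the heat resistant ones in both panels.

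miR-25 moved with the red cell miRNA miR-451, which is needed for red cell maturation. The 5 members and 3 sets of libraries made 15 relations, and p-values were adjusted over them. For all 12 libraries the permutations took no account of group, so a difference between the groups enters these relations. Across the 12 libraries, Pearson's r of log2 CPM between miR-25 and miR-451 was 0.91 (permutation p = 5e-05, adjusted 0.00075) and Spearman's rho 0.84 (permutation p = 0.00116, adjusted 0.0174). Without the 2 libraries farthest from the median of miR-451, heat resistant library 4 and heat stressed library 1, r was 0.88. Within the heat stressed group r was 0.89 (exact permutation p = 0.0292, adjusted 0.0972) and rho 0.77 (exact permutation p = 0.103, adjusted 0.257). Within the heat resistant group r was 0.93 (exact permutation p = 0.0597, adjusted 0.128) and rho 0.31 (exact permutation p = 0.564, adjusted 0.769), with library 4 far above the other 5 in both measures.

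For miR-92a the pooled r with miR-451 was 0.74 (permutation p = 0.00646, adjusted 0.0484) and rho 0.59 (permutation p = 0.0488, adjusted 0.244), with r = 0.63 without the 2 libraries. Within groups, r for miR-92a was 0.84 in heat stressed libraries, against 0.61 in heat resistant ones (exact permutation p = 0.0694 and 0.185, adjusted 0.129 and 0.231). Spearman's rho for miR-92a was 0.54 in the heat stressed group and -0.09 in the heat resistant group (exact permutation p = 0.297 and 0.919, adjusted 0.557 and 0.919). For miR-32 r was 0.68 (permutation p = 0.0180, adjusted 0.0898) and rho 0.70 (permutation p = 0.0136, adjusted 0.102), with r = 0.69 without the 2 libraries. Within the heat stressed group r for miR-32 was 0.32 and rho 0.14 (exact permutation p = 0.569 and 0.803), and within the heat resistant group r was 0.92 (exact permutation p = 0.0389, adjusted 0.0972) and rho 0.54 (exact permutation p = 0.297, adjusted 0.557). With 24808 CPM of miR-451, heat resistant library 4 was again far above the other 5 in both measures. The pooled r was 0.61 for miR-92b and 0.53 for miR-363 (permutation p = 0.0382 and 0.0773, adjusted 0.0972 and 0.129), with rho of 0.52 and 0.54 (permutation p = 0.0901 and 0.0745, adjusted 0.257 each). Both measures in a relation are divided by the same library total.

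**Figure D4:**
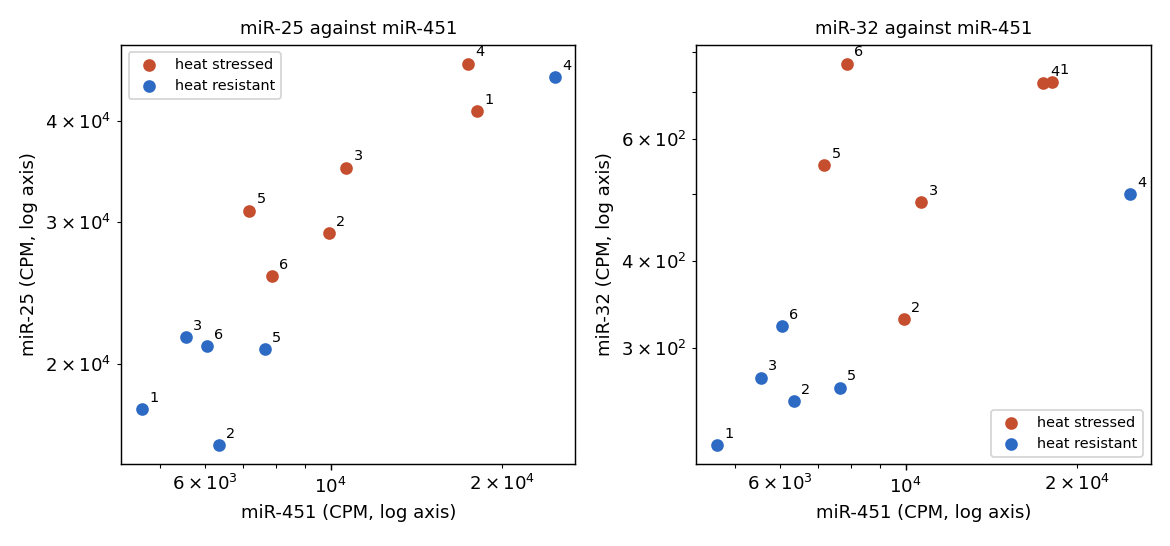
miR-25 (left) and miR-32 (right) against miR-451 in CPM, both axes logarithmic; points are libraries with their numbers. miR-25 follows miR-451 over the 12 libraries (r = 0.91), while miR-32 is at its highest, 769.8 CPM, in heat stressed library 6, whose miR-451 is low for that group.

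The ratio of miR-451 to miR-23a on the log2 scale, taken as a measure of red cell RNA, was 0.38 ± 0.74 in heat stressed libraries, against -0.86 ± 1.40 in heat resistant ones (n = 6 each, SD). The value of heat resistant library 4 was 1.92, and without it that group stood at -1.41 ± 0.37 (n = 5, SD) and did not overlap the heat stressed group. The 2 terms of the ratio differed in direction: the log2 fold change was 0.37 ± 0.39 for miR-451 and -0.75 ± 0.28 for miR-23a (SE; adjusted p = 0.624 and 0.155, edgeR), so the ratio does not stand for red cell RNA alone. With this ratio as a covariate in edgeR, the log2 fold change of miR-25 was 0.19 ± 0.15 and that of miR-92a was 0.08 ± 0.12 (SE; adjusted p = 0.774 and 0.882, edgeR). It was 0.61 ± 0.19 for miR-32, 0.22 ± 0.16 for miR-92b and 0.14 ± 0.18 for miR-363 (SE; adjusted p = 0.471, 0.747 and 0.848, edgeR). In that fit 1 of the 8 features, miR-32, had an unadjusted p under 0.05, as had 61 of 756 features (8.07%), and edgeR called 0 of 756. Without the covariate 146 of 756 features had an unadjusted edgeR p under 0.05 (19.3%). The ratio was higher on average in heat stressed libraries, so this fit can assign part of a group difference to the ratio. With the covariate and without heat resistant library 4, chosen after seeing the data, the log2 fold change was 0.41 ± 0.27 for miR-25, 0.46 ± 0.32 for miR-32 and -0.03 ± 0.25 for miR-92b (SE; adjusted p = 0.890, 0.907 and 0.988, edgeR), and edgeR called 0 of 777. Since the ratio does not overlap between the groups without that library, this fit can hardly tell the group from the ratio. The 8 tested features of the 3 red cell marker names all had log2 fold changes above 0 with all 12 libraries, with a median of 0.59 and none called. Without heat resistant library 4, 7 of the 8 were called, among 97 of 777 features in all (12.5%). Since this library had the highest sum of these markers in its group, leaving it out widens their difference by construction.

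The other marker lists varied as well, and their part in the differences of the family was not tested. Lymphocyte miRNAs (miR-150, miR-342, miR-155 and miR-181a) summed to 7937 to 15172 CPM in heat stressed libraries, against 6310.5 to 8498 CPM in heat resistant ones, with the highest value in heat stressed library 6. Of their 12 tested features 8 had higher and 4 lower values, with a median log2 fold change of 0.70. All 4 lower features were forms of miR-181a, of which another form stood at 0.67, and miR-155 stood at 0.04 (log2 fold changes). Of the lower forms 2 gave identical fits, with a log2 fold change of -0.55 each. edgeR called 0 of the lymphocyte features with all libraries. Without heat resistant library 4 it called 6 of 13 tested, among 97 of 777 features in all (12.5%). DESeq2 called 5, all of them forms of miR-150 or miR-342, among 54 of 756 features in all (7.14%). Myeloid miRNAs (miR-223, miR-146a and miR-146b) summed to 7223 to 13348 CPM in heat stressed libraries, against 6655 to 10796 CPM in heat resistant ones. miR-126, of platelets and endothelium, ran from 2599 to 8827 CPM in heat stressed libraries, against 4165 to 7020.3 CPM in heat resistant ones. Hepatocyte miRNAs are given above as a sum, but their 2 names went opposite ways between the groups. Of their 5 tested features 2 had higher and 3 lower values. The log2 fold change was -1.42 for miR-122 and 0.63 for miR-885 (adjusted p = 0.213 and 0.477, edgeR). Heat resistant libraries 1 and 2, which had the highest hepatocyte sums, were also those with the lowest family share and, with rows summed, more miR-92a than miR-25. Muscle miRNAs (miR-1, miR-133a, miR-206, miR-208b and miR-499) ran from 334 to 1033 CPM in heat stressed libraries, against 268 to 1032 CPM in heat resistant ones. No name of these lists was at 0 in every library.

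The features that tracked each member best were not the same for all members. Forms of miR-15b were listed for both miR-25 and miR-32, and forms of miR-29 for both miR-32 and miR-92b. Over the 12 libraries, Spearman's rho of log2 CPM was computed between each member's main form and the 748 tested features outside the family, and the 3 highest are given as a description. miR-25 was most like miR-144-5p, a product of the red cell precursor that also yields miR-144 (rho = 0.96), the 3′ product of miR-106b (0.94) and miR-15b-3p (0.94). miR-32 was most like miR-29a (0.97), miR-342 of the lymphocyte list (0.97) and miR-15b (0.93). miR-92a was most like miR-185 (0.90), a feature named miR-320b (0.87) and miR-2285g (0.84). miR-92b was most like a predicted candidate (0.96), miR-335-3p (0.92) and miR-29d-3p (0.91). miR-363 was most like miR-2284x (0.92), miR-6525 (0.87) and another predicted candidate (0.87). The median rho over the 748 features lay between -0.01 and 0.05 for the 5 members. miR-29a and miR-342 ranked 3rd and 4th of 756 by p between the groups, near miR-32, and the likeness was taken over both groups together.

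The passenger arms were scarce, and their log2 fold changes were above 0. miR-25-5p stood at 40.7 ± 6.58 CPM in heat stressed libraries, against 33.3 ± 4.26 CPM in heat resistant ones (n = 6 each, SD; log2 fold change 0.29 ± 0.15, SE; adjusted p = 0.293, edgeR). miR-92a-5p stood at 18.1 ± 3.25 CPM in heat stressed libraries, against 13.9 ± 2.56 CPM in heat resistant ones (n = 6 each, SD; log2 fold change 0.38 ± 0.19, SE; adjusted p = 0.273, edgeR). miR-92b-5p stood at 11.3 ± 3.05 CPM in heat stressed libraries, against 8.53 ± 1.51 CPM in heat resistant ones (n = 6 each, SD; log2 fold change 0.40 ± 0.22, SE; adjusted p = 0.308, edgeR). The log2 ratio of the 5′ to the 3′ product of the miR-25 precursor was -9.66 ± 0.27 in heat stressed libraries, against -9.31 ± 0.40 in heat resistant ones (n = 6 each, SD), a difference of -0.35 ± 0.20 (SE). It did not pass limma's test over 156 precursors, of which 5 were called (3.21%; adjusted p for miR-25 = 0.343). The differences were 0.08 ± 0.16 for miR-92a and -0.11 ± 0.13 for miR-92b (SE; limma adjusted p = 0.787 and 0.637). In both groups the passenger arm of miR-92b was less scarce relative to its guide than those of miR-25 and miR-92a, with log2 ratios of -5.05 ± 0.19 in heat stressed libraries, against -4.94 ± 0.11 in heat resistant ones (n = 6 each, SD). Those of miR-92a were -9.08 ± 0.22 in heat stressed libraries, against -9.16 ± 0.25 in heat resistant ones (n = 6 each, SD). The row of the miR-92a guide was counted once here, and with its rows summed these ratios would be lower.

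The 4 features under the filter on low counts were near the floor of the table. miR-32-3p had 5 to 15 counts in heat stressed libraries, against 0 to 17 counts in heat resistant ones. miR-363-5p had 8 to 20 counts in heat stressed libraries, against 0 to 12 counts in heat resistant ones. A feature carrying the platypus name of miR-92b had 2.5 to 7.5 counts in heat stressed libraries, against 0 to 11 counts in heat resistant ones. A feature carrying the dog name of miR-25 had 6 counts in heat stressed library 2 and 6 in heat resistant library 5, and was at 0 in the other 10 libraries. At these depths no difference between the groups was detectable.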

How the data were processed

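Small RNA of 12 blood libraries was measured. Per the labels' protocols, total RNA came from a Trizol extraction, TruSeq small RNA libraries were sequenced on an Illumina HiSeq, and ACGT101-miR removed adapter dimers, junk, low complexity reads, common RNA families and repeats; no aligner, miRBase release or build is given in the sources used here. The deposited table holds expected counts per miRNA row, per the file headers (raw). A deposited normalized signal, 1 constant (0.692 to 1.70) times the raw values of each library, entered no test. Counts were rounded, repeat rows of a name counted once, and fitted over the whole table with edgeR 4.0.16 under R 4.3.3 (minimum count 10 in filterByExpr, TMM, robust quasi-likelihood F test, Benjamini-Hochberg at 0.05, 2-sided); SE is the log2 fold change over the root of F. Arm ratios used limma 3.58.1 on log2 CPM with a prior of 2. DESeq2 1.42.0 and limma-voom were alternatives. The fits were checked on simulated data. p-values between groups weigh the difference against the spread between libraries. Permutation p-values weigh a correlation against those of shuffled libraries. Groups came from the group label. All family features are accounted for; values by library go to the most abundant form of each name, partners and marker lists (red cell, lymphocyte, myeloid, platelet and endothelium, hepatocyte, muscle) were set by name, and the 3 most similar features by rho. Members and lists were chosen with earlier results of these data known. Sequences are not printed here.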

Additional observations from a re-analysis of the deposited data

Results flagged for a closer look

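In 26 groups of 6 values examined (8 tested features, the family share, the ratio of miR-25 to miR-92a and 3 arm ratios, in each group), 4 had a library far from the rest of its group by Dixon's criterion, which chance gives in about 1 of 20 groups. Heat resistant library 4 gave 3 of these. It had 45365 CPM of miR-25, where the next highest of its group had 21578 CPM. It had 500.3 CPM of miR-32, where the next had 323 CPM, a gap only just past the criterion. The family held 5.68% of its counts, where the next had 3.30%. The other was heat resistant library 5, with 8.78 CPM of miR-92a-5p where the next lowest had 14.4 CPM. The 26 groups are not independent: miR-25 made up most of the family's counts, and the ratios reuse the same features. The 4 therefore cannot be weighed against the rate of 1 in 20.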

How the results depend on the processing

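The log2 fold changes of the 8 tested features were above 0 in 173 of 176 refits, and 164 kept their direction and side of the threshold. In 3 refits, with the covariate and without heat resistant library 4, the value was below 0: miR-92b (-0.034), miR-92b-5p (-0.19) and miR-92a-5p (-0.11). That fit can hardly tell the group from the covariate, which does not overlap between the groups there. The other 9 passed the threshold: miR-32 with DESeq2 (0.95), without the filter on low counts (1.01), with repeat rows summed (0.94; edgeR adjusted p = 0.0488), with the replicate block (0.97), and without heat resistant library 4 or heat stressed library 2; miR-25 without heat resistant library 4; and miR-92b with either of these libraries left out. Without each library in turn the log2 fold change ran from 0.82 to 1.17 for miR-32, from 0.45 to 0.85 for miR-25, from 0.36 to 0.55 for miR-92b, from 0.16 to 0.34 for miR-92a and from 0.20 to 0.48 for miR-363. Calls over the whole table, 0 with all libraries, numbered 54 with DESeq2 (7.14%), 11 without the filter (0.556%), 13 with repeat rows summed (1.68%), 8 with the replicate block (1.06%), and 0 to 97 without each library in turn (97 without heat resistant library 4, 29 without heat stressed library 2, 2 without heat resistant library 5). Family calls numbered 1, 1, 1 and 1 in the first 4 of these and 0 to 3 without each library in turn. The cause was not tested. The numbers share no stated meaning between groups: same-numbered libraries' deviations correlated at -0.05 to 0.28, 3 of 6 best with their own number, so the block is no paired analysis. Other scalings, limma-voom, the covariate (with or without heat resistant library 4) and leaving out heat resistant libraries 1 and 2 gave 0 calls. The 3 arm ratios kept their side of the threshold and direction in all 48 refits. The family share differed by 1.26 percentage points, by 1.33 with rows summed and by 0.837 without heat resistant libraries 1 and 2. With 6 cows a group and heat resistant libraries 1, 2 and 4 apart from the rest, the adjusted p of miR-32 lies near the threshold.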
